A study of Homo sapiens with 6 samples.

Results

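The genes described here encode subunits of respiratory complexes II, III, IV and V and the electron carrier cytochrome c. They were chosen by name, as a listed set of 44 symbols matched to the gene identifiers of the count table, and the rule itself uses no measured value, although the set was proposed with earlier results of these data known. All 44 were found among the 35716 genes of the table, and all 44 passed the filter on low counts. Of these, 38 are nuclear genes and 6 are carried by mitochondrial DNA. Complex II has 4 members, complex III 10, complex IV 12 and complex V, the ATP synthase, 17, with cytochrome c as 1 more. The cells were MIA PaCa-2, a human line from a pancreatic ductal adenocarcinoma, labelled as wild type in genotype. The 3 triptolide libraries came from cells given 10 nM triptolide for 24 h, and the 3 untreated libraries from cells kept for 24 h in the same kind of serum-containing medium with no treatment named. Triptolide is a plant diterpenoid that binds XPB, a subunit of the general transcription factor TFIIH, and thereby blocks transcription by RNA polymerase II. All libraries stand for a single cell line. Nothing in the labels says whether a group's 3 libraries were separate cultures, and the p-values therefore speak of the spread between libraries alone, which may be technical.

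In the inner mitochondrial membrane, complex II takes electrons from succinate, complex III takes them from ubiquinol to cytochrome c, and complex IV takes them from cytochrome c to oxygen. Complexes III and IV pump protons, and complex V uses the returning protons to make ATP. All subunits of complex II are nuclear gene products, while complexes III, IV and V each also hold subunits made from mitochondrial DNA, which has its own polymerase. Nuclear and mitochondrial gene products must meet in the same complexes, and pancreatic cancer cells are known to use oxidative phosphorylation beside glycolysis.

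Poly(A) RNA was sequenced, and gene-level read counts were analysed. The totals were 16302961, 22549382 and 23262713 counts in the triptolide libraries and 17566458, 18215007 and 19600354 counts in the untreated libraries. Levels are given as CPM, a count scaled to sequencing depth, after TMM scaling, and differences as log2 fold changes of triptolide over untreated with their standard errors. Differences were tested with edgeR's quasi-likelihood test with Benjamini-Hochberg adjustment over the 15202 genes tested, and a gene was called at an adjusted p under 0.05. Over these genes, 1527 (10.0%) were called higher and 884 (5.82%) lower with triptolide. The split of calls moved with the scaling, to 1671 higher and 594 lower with library totals alone and to 1175 higher and 128 lower with ribosomal protein scaling. It was 1751 higher and 2631 lower with a GC offset, and 1473 higher and 1581 lower with a length offset. Defining markers of the labelled ductal epithelial type were unevenly present: the 8 markers summed to 2055 to 2740 CPM in triptolide libraries and 2666 to 3746 CPM in untreated libraries, while EPCAM had 3 and 4 counts and CDH1 16 and 5 counts in the 3 triptolide and 3 untreated libraries together. Of the 6 tested, 0 were called higher and 1 lower, KRT18 (edgeR log2 fold change −0.79, adjusted p = 0.0123).

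Markers of other cell types moved between the groups. The 32 placental trophoblast markers summed to 596 to 975 CPM with triptolide and 27.8 to 30.4 CPM without it, with 19 of 21 tested called higher and 8 of the 32 at 0 in every untreated library. Fibroblast markers summed to 316 to 429 CPM with triptolide and 432 to 519 CPM in untreated libraries, with 5 of 9 tested called lower. Blood markers summed to 11.3 to 23.3 CPM with triptolide and 2.77 to 3.92 CPM in untreated libraries, with 3 of 4 tested called higher. Muscle markers summed to 1.55 to 2.77 CPM with triptolide and 0.885 to 1.43 CPM in untreated libraries, and the single one tested was not called. Whether these shifts had a part in the values below was not tested, and in bulk RNA fewer cells of a type and less RNA per cell cannot be told apart.

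None of the 44 members passed the test, which compares relative levels and not amounts per cell. With edgeR, 0 were called higher and 0 lower, beside the 10.0% and 5.82% of all tested genes, and the smallest adjusted p was 0.0834, for ATP5PB. At an unadjusted p under 0.05 there were 1 higher (SDHA) and 3 lower (UQCR11, ATP5PB and ATP5MC2), where 17.1% and 13.8% of all tested genes stood. DESeq2, which called 9.9% of all tested genes higher and 7.39% lower, and limma-voom, with 9.76% and 5.91%, also called 0 members in either direction, each with 4 at an unadjusted p under 0.05. Some alternatives called members lower: 2 with a GC offset (ATP5MC2 and UQCR11, beside 17.3% of all tested genes), 3 with a length offset chosen after seeing the data (UQCR11, COX6A1 and ATP5PB, beside 10.4%) and 1 without triptolide replicate 2 (ATP5MG, beside 5.77%). In 41 of the 44 members the 95% interval of the difference lay within a 2-fold change either way. The exceptions were SDHD, ATP5PO and ATP5MG, whose intervals reached beyond a 2-fold lower level.

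The nuclear and the mitochondrial members differed in where their fitted values lay. Among the 38 nuclear members, 32 had a log2 fold change below 0, against 50.3% of all tested genes, with a median of −0.18 and a range of −0.57 to 0.49. All 6 mitochondrially encoded members had a value above 0, with a median of 0.16 and a range of 0.00 to 0.37, and the median of all tested genes was −0.00. Of the 7 other mitochondrially encoded protein genes, 5 lay above 0 and 2 below, with a range of −0.13 to 0.47. The nuclear median rested on 1 library: it was 0.01 without untreated replicate 3, when 18 of 38 nuclear values were below 0. It was 0.00 with ribosomal protein scaling, where the median of all tested genes was 0.17. The mitochondrial median was 0.00 without triptolide replicate 2 and −0.06 with a length offset, where the median of all tested genes was 0.01 and −0.07.

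**Figure D1:**
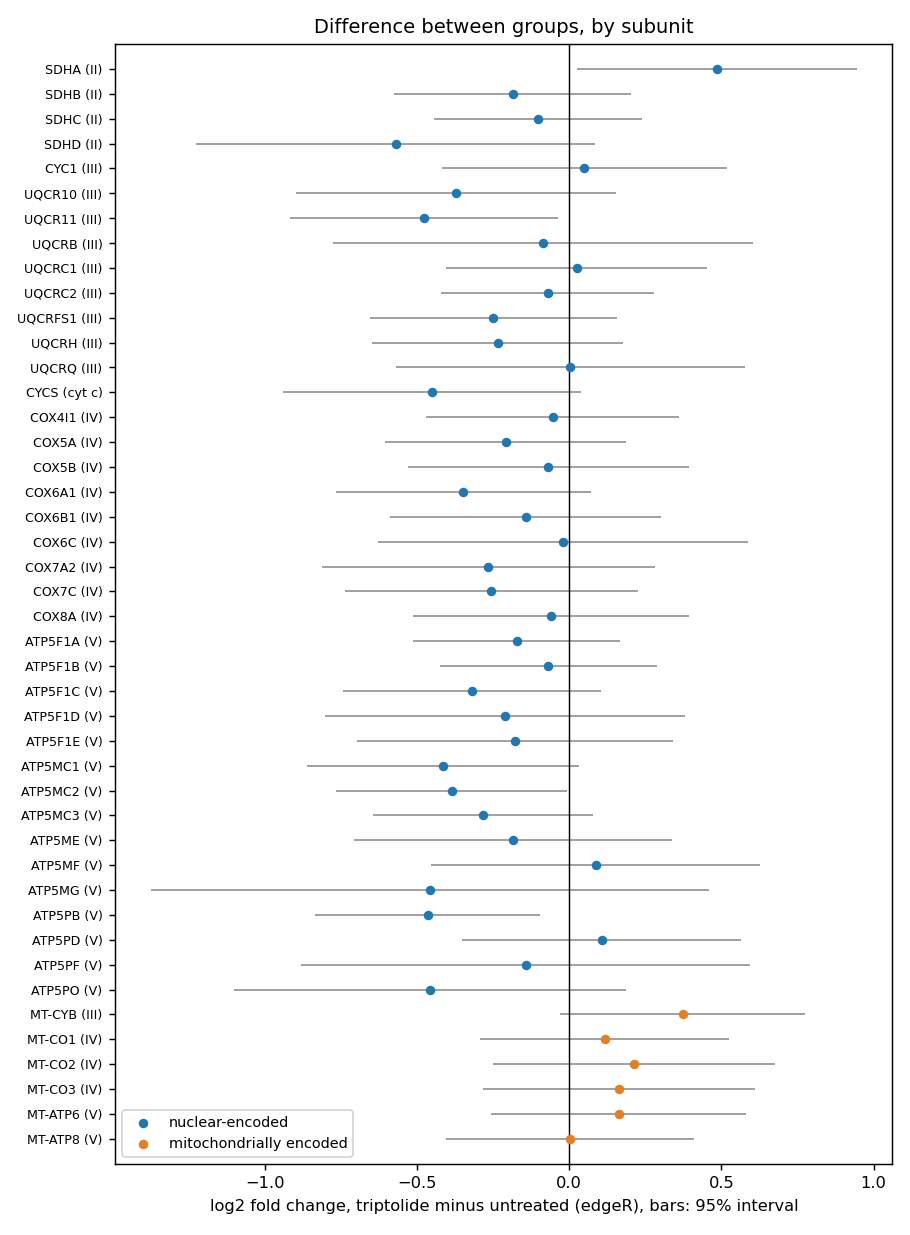
Fitted log2 fold change of each of the 44 subunit genes (x axis, triptolide minus untreated, edgeR), with the complex in brackets; bars are 95% intervals and colour marks nuclear or mitochondrial coding. The 4 intervals that exclude 0 are those of SDHA above it and of UQCR11, ATP5PB and ATP5MC2 below it, and none of these genes passed the test after adjustment.

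Complex II links the citric acid cycle to the chain. SDHA (ENSG00000073578), the flavoprotein that oxidises succinate, had 61.4, 36.5 and 38.02 CPM in triptolide libraries, against 29.6, 32.6 and 34.6 CPM in untreated libraries. Every triptolide library was above every untreated one, with triptolide replicate 1 far above the other two. Its mean was 45.3 ± 13.9 CPM with triptolide and 32.3 ± 2.53 CPM in untreated cells (SD, n = 3 each), a log2 fold change of 0.49 ± 0.21 (95% interval 0.03 to 0.95, edgeR adjusted p = 0.141). Without triptolide replicate 1 the log2 fold change of SDHA was 0.22 (adjusted p = 0.266).

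Reads of SDHA can be confused with those of 3 pseudogenes that carry near copies of it. SDHAP1, SDHAP3 and SDHAP4 together held 1478, 1932 and 2340 counts with triptolide and 1470, 1467 and 1361 counts in untreated libraries. SDHA itself held 976, 837 and 954 counts with triptolide and 529, 590 and 630 counts in untreated libraries. The pseudogenes thus held more counts than the gene in every library, and how the counting split shared reads is not given in the sources used here. Their log2 fold changes were 0.09, 0.23 and 0.20 for SDHAP1, SDHAP3 and SDHAP4 (adjusted p = 0.78, 0.34 and 0.453), so the level of SDHA is uncertain.

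SDHB, the iron-sulphur subunit that passes electrons on, had 157, 185 and 134 CPM in triptolide libraries, against 156, 174 and 211 CPM in untreated libraries. SDHC, a membrane anchor, had 82.7, 99.5 and 92.8 CPM with triptolide, against 92.1, 108 and 95.4 CPM in untreated libraries. For both genes the groups overlapped, with log2 fold changes of −0.19 ± 0.18 and −0.10 ± 0.16 (adjusted p = 0.518 and 0.703). SDHD (ENSG00000204370), the other membrane anchor, had 7.67, 21.3 and 17.0 CPM with triptolide, against 18.8, 21.8 and 28.1 CPM in untreated libraries. Triptolide replicate 1 was the lowest library by a wide margin, and triptolide replicate 2 lay inside the untreated range. The log2 fold change of SDHD was −0.57 ± 0.30 (95% interval −1.23 to 0.09, adjusted p = 0.224), the lowest fitted value among the 44 members. Without triptolide replicate 1 it was −0.24 (adjusted p = 0.419).

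In complex III, UQCRC1 and UQCRC2 form the core on the matrix side, CYC1 and the Rieske protein UQCRFS1 carry electrons, and the remaining nuclear members are small accessory subunits. UQCR11 (ENSG00000127540), one of the small subunits, had 13.9, 13.7 and 12.04 CPM with triptolide, against 15.6, 15.8 and 23.6 CPM in untreated libraries. Every triptolide library was below every untreated one, and untreated replicate 3 stood above its group. The difference was −0.48 ± 0.20 on the log2 scale (95% interval −0.92 to −0.04, adjusted p = 0.131), and without untreated replicate 3 it was −0.26 (adjusted p = 0.363). With a GC offset it was −0.64 (adjusted p = 0.0213) and with a length offset −0.62 (adjusted p = 0.0259).

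CYCS, cytochrome c, carries electrons between complexes III and IV and also takes part in apoptosis when released from mitochondria. It had 148, 297 and 241 CPM in triptolide libraries, against 289.6, 302 and 346 CPM in untreated libraries. Triptolide replicates 1 and 3 were below all untreated libraries, while triptolide replicate 2 overlapped them. The log2 fold change was −0.45 ± 0.22 (95% interval −0.94 to 0.04, adjusted p = 0.198), and −0.20 without triptolide replicate 1. CYC1, cytochrome c1, had 477, 302 and 299 CPM with triptolide, against 294, 325 and 421 CPM in untreated libraries, and UQCRH, the hinge protein beside it, had 245, 306 and 232 CPM, against 268, 269 and 384 CPM. Both sets of libraries overlapped, with log2 fold changes of 0.05 ± 0.21 for CYC1 (adjusted p = 0.899) and −0.23 ± 0.19 for UQCRH (adjusted p = 0.439). Per kilobase of transcript, UQCRH was the most abundant nuclear member of the complex, with a mean of 432 CPM per kb with triptolide and 508 CPM per kb in untreated cells. The 6 other nuclear members of complex III (UQCRC1, UQCRC2, UQCRFS1, UQCRB, UQCRQ and UQCR10) had log2 fold changes of −0.37 to 0.03, with adjusted p of 0.328 to 0.995.

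In complex IV, the catalytic core is mitochondrially encoded and the nuclear members surround it and adjust its assembly and activity. All 9 nuclear members had a log2 fold change below 0, with a median of −0.14. Relative to the untreated mean, their median log2 level was −0.07, 0.02 and −0.35 in triptolide replicates 1 to 3. It was −0.26, −0.14 and 0.44 in untreated replicates 1 to 3. Triptolide replicates 1 and 2 thus lay above untreated replicates 1 and 2, and untreated replicate 3 above all others. COX6A1, the widely expressed form of an accessory subunit, had 17.2, 18.5 and 16.2 CPM with triptolide, against 18.2, 20.1 and 27.7 CPM in untreated libraries. Untreated replicate 3 was the highest library, and the groups overlapped because triptolide replicate 2 lay just above untreated replicate 1. The log2 fold change was −0.35 ± 0.19 (95% interval −0.77 to 0.07, adjusted p = 0.246), and without untreated replicate 3 it was −0.16 (adjusted p = 0.594). Pseudogenes of COX6A1 held 567 counts over all libraries, 24.7% of the gene's own 2297. COX6A1 also shares 13.0% of its exon bases with another gene, so its level is uncertain. COX7C, a small membrane subunit, had 165, 228 and 163 CPM with triptolide, against 175, 189.8 and 299 CPM in untreated libraries, and its groups overlapped (log2 fold change −0.25 ± 0.22, adjusted p = 0.472). COX4I1, the main form of the largest nuclear subunit, had 498, 464 and 376 CPM with triptolide, against 379.6, 434 and 576 CPM in untreated libraries. COX6B1, which bridges the monomers of the dimer, had 232, 231 and 184 CPM, against 197, 201 and 317 CPM. In both, untreated replicate 3 was the highest of the 6 libraries and the groups overlapped, with log2 fold changes of −0.05 ± 0.19 (adjusted p = 0.877) and −0.14 ± 0.20 (adjusted p = 0.679). The 5 remaining nuclear members (COX5A, COX5B, COX6C, COX7A2 and COX8A) had log2 fold changes of −0.26 to −0.02, with adjusted p of 0.474 to 0.972.

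Complex V is a rotary machine with a catalytic head, a turning central stalk and ring of subunit c, and a fixed peripheral stalk. The head genes were the most abundant nuclear members by CPM. ATP5F1A, the alpha subunit, had 843, 778 and 767 CPM with triptolide, against 814, 902 and 976 CPM in untreated libraries, and ATP5F1B, the catalytic beta subunit, had 1179.8, 1065 and 1021 CPM, against 1018, 1118 and 1289.9 CPM. The groups overlapped for both. The log2 fold changes were −0.17 ± 0.16 for ATP5F1A (95% interval −0.51 to 0.17, adjusted p = 0.491) and −0.07 ± 0.16 for ATP5F1B (−0.42 to 0.29, adjusted p = 0.815). Per kilobase, ATP5F1B averaged 592 CPM per kb with triptolide and 621 CPM per kb in untreated cells.

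ATP5PB (ENSG00000116459), subunit b of the peripheral stalk, had 165, 197 and 165 CPM in triptolide libraries, against 214, 226 and 287 CPM in untreated libraries. All triptolide libraries were below all untreated ones. Its mean was 176 ± 18.3 CPM with triptolide and 242 ± 39.0 CPM in untreated cells (SD, n = 3 each). The log2 fold change of −0.46 ± 0.17 (95% interval −0.83 to −0.10) came nearest to the threshold of all members (adjusted p = 0.0834). Without untreated replicate 3 it was −0.34 (adjusted p = 0.194), and with a length offset it was −0.52 (adjusted p = 0.0329). The groups of only 4 of the 44 members did not overlap, 1 with triptolide above and 3 below, beside 19.8% and 17.0% of all tested genes.

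The c ring is served by 3 genes, ATP5MC1, ATP5MC2 and ATP5MC3, which encode different targeting sequences ahead of the same mature subunit. Their predicted proteins, of 136, 157 and 142 residues, share their last 77 residues, so the ring subunit itself does not tell the genes apart while the mRNA does. The 231 coding bases of that shared end, from the GENCODE 29 transcripts, are printed to show how far the genes can be told apart by reads. Capitals mark the positions at which the 3 genes are not all the same.
ATP5MC1: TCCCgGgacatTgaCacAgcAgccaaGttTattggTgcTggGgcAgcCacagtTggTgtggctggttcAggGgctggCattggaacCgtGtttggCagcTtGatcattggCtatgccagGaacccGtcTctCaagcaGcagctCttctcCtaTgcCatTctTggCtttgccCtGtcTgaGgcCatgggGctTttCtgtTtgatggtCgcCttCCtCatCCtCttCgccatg
ATP5MC2: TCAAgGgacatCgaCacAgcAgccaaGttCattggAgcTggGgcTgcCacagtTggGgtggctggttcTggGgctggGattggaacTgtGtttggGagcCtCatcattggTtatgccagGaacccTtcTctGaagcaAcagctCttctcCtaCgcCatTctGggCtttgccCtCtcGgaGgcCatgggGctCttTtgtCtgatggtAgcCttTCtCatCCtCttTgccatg
ATP5MC3: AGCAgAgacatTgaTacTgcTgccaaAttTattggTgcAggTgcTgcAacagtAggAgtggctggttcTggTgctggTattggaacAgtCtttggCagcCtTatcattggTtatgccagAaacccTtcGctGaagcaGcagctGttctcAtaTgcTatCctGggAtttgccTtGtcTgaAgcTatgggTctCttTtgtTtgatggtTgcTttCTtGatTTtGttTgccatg
All 3 carried the same base at 174 of the 231 positions (75.3%). ATP5MC1 and ATP5MC2 were identical at 204 positions (88.3%), and ATP5MC3 was identical to each of them at 185 (80.1%). The longest run shared by any pair was 17 bases, well short of the 150 bp reads. This comparison covers the 3 genes alone and not their pseudogenes. Pseudogenes of ATP5MC1 and ATP5MC2 held counts equal to 0.75% and 0.83% of the gene's own. Processed pseudogenes also lie over 6.99% of the exon bases of ATP5MC2 (same strand) and 5.8% of those of ATP5MC3 (opposite strand).

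ATP5MC1 had 84.0, 103 and 73.9 CPM with triptolide, against 98.6, 97.5 and 151 CPM in untreated libraries. ATP5MC2 (ENSG00000135390) had 76.7, 71.0 and 59.9 CPM with triptolide, against 77.6, 87.9 and 106 CPM in untreated libraries. ATP5MC3 had 335, 286 and 268 CPM with triptolide, against 328, 339.8 and 414 CPM in untreated libraries. The groups of ATP5MC2 did not overlap, though triptolide replicate 1 lay just under untreated replicate 1, and those of ATP5MC1 and ATP5MC3 overlapped. The log2 fold changes were −0.41 ± 0.21 for ATP5MC1 (adjusted p = 0.195), −0.39 ± 0.17 for ATP5MC2 (95% interval −0.77 to −0.01, adjusted p = 0.157) and −0.28 ± 0.17 for ATP5MC3 (adjusted p = 0.275). For ATP5MC2 the value was −0.54 with a GC offset (adjusted p = 0.0287) and −0.27 without untreated replicate 3 (adjusted p = 0.324). The summed level of the 3 genes was 496, 459 and 402 CPM with triptolide and 504, 525 and 671 CPM in untreated libraries. ATP5MC3 made up 67.6, 62.2 and 66.7% of that sum with triptolide and 65.1, 64.7 and 61.7% in untreated libraries, so the gene in greatest supply by CPM was the same in every library.

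The 9 remaining nuclear members of complex V had log2 fold changes of −0.46 to 0.11, with adjusted p of 0.295 to 0.846. They are the central stalk genes ATP5F1C, ATP5F1D and ATP5F1E, the peripheral stalk genes ATP5PD, ATP5PF and ATP5PO, and the membrane genes ATP5ME, ATP5MF and ATP5MG. ATP5MG, at low levels, varied widely between replicates, with 3.71, 14.7 and 6.54 CPM with triptolide, against 7.11, 10.5 and 17.1 CPM in untreated libraries. Its log2 fold change was −0.46 ± 0.42 (95% interval −1.37 to 0.46, adjusted p = 0.498), and it turned on single libraries. It was −1.13 without triptolide replicate 2 (adjusted p = 0.0405), but −0.10 with triptolide replicate 1 left out (adjusted p = 0.883) and −0.07 with untreated replicate 3 left out (adjusted p = 0.939). ATP5ME shares 61.6% of its exon bases with MYL5 on the opposite strand in GENCODE 29, and whether counting used strand is not given in the sources used here. In all, 12 of the 38 nuclear members share over 10% of their exon bases with another gene on either strand. Their levels are uncertain, and the shared percentage does not give by how much. By mean CPM, ATP5PO, COX6A1, SDHD, UQCR11, ATP5MG and ATP5ME rank 38 to 41, 43 and 44 of the 44 members. The others, UQCRQ, COX8A, ATP5F1E, ATP5PB, ATP5PD and ATP5PF, rank 16 to 35. Whether overlap had a part in these levels was not tested.

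**Figure D2:**
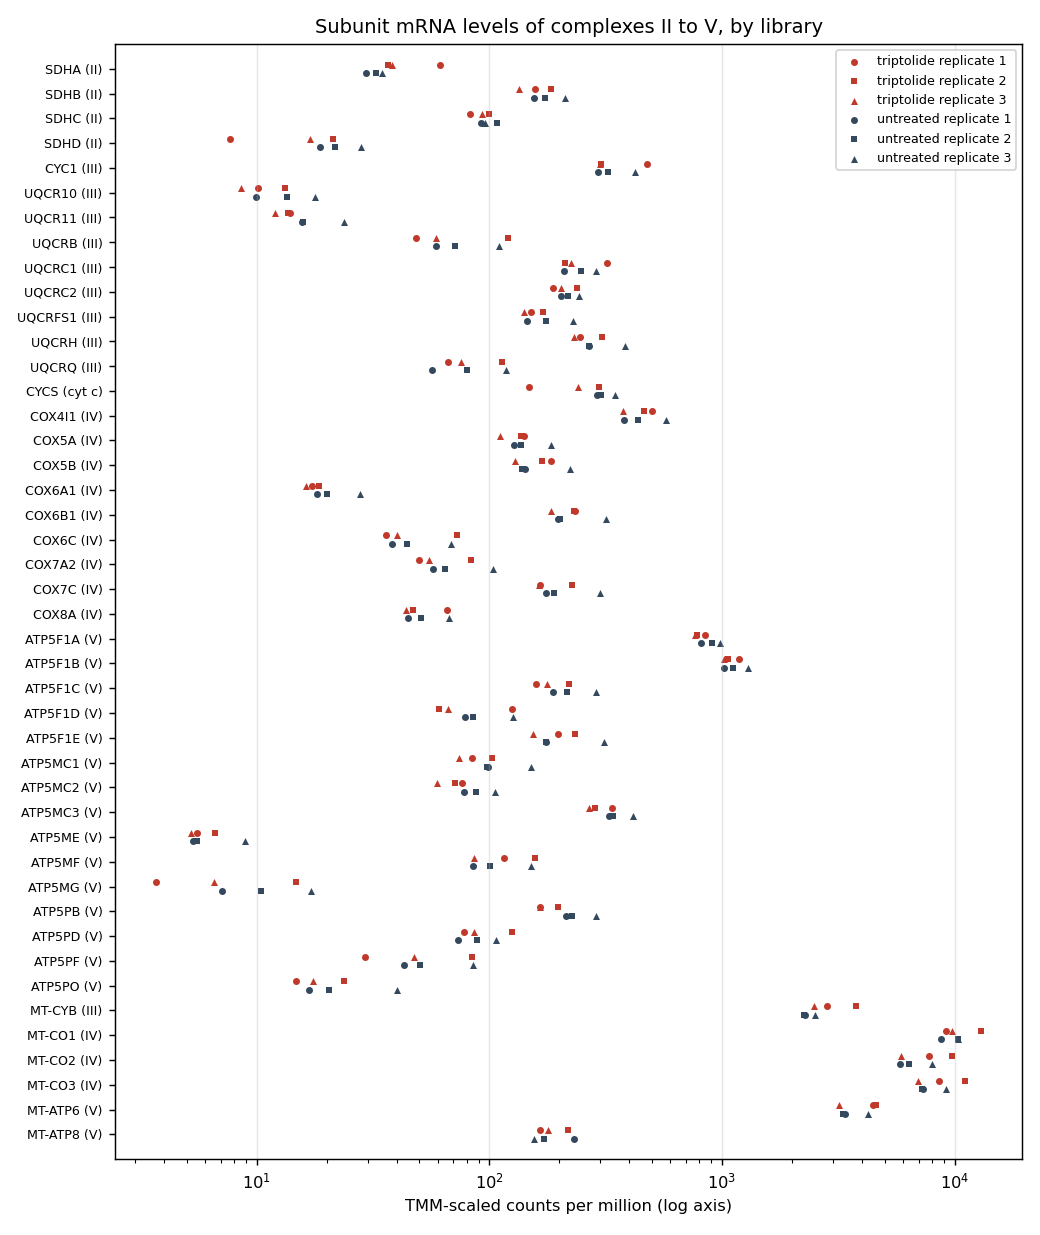
TMM-scaled CPM (x axis, log scale) of each subunit gene in the 3 triptolide and 3 untreated libraries, with the complex in brackets; each point is 1 library. The mitochondrially encoded genes other than MT-ATP8 sit at 2245 to 13009.5 CPM, above every nuclear gene, and the groups overlap in 40 of the 44 genes.

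By CPM, the mitochondrially encoded members other than MT-ATP8 were the most abundant transcripts of the set. MT-CYB (ENSG00000198727), the cytochrome b of complex III, had 2836, 3751 and 2497 CPM with triptolide, against 2274, 2245 and 2502 CPM in untreated libraries. The groups met at a single point, where triptolide replicate 3 lay just below untreated replicate 3. Its log2 fold change was 0.37 ± 0.18 (95% interval −0.03 to 0.77, adjusted p = 0.194), and it was 0.20 without triptolide replicate 2 (adjusted p = 0.474).

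MT-CO1 forms the oxygen-reducing centre of complex IV, MT-CO2 receives electrons from cytochrome c, and MT-CO3 stabilises the core. MT-CO1 had 9212, 13009.5 and 9711 CPM with triptolide, against 8747, 10367 and 10350.1 CPM in untreated libraries. MT-CO2 had 7779, 9762 and 5911 CPM, against 5818, 6381 and 8032 CPM, and MT-CO3 had 8548, 11128 and 6947 CPM, against 7291, 7266 and 9225 CPM. In all 3, triptolide replicate 2 was the highest of the 6 libraries and the groups overlapped. The log2 fold changes were 0.12 ± 0.19 for MT-CO1 (adjusted p = 0.716), 0.21 ± 0.21 for MT-CO2 (adjusted p = 0.534) and 0.16 ± 0.20 for MT-CO3 (adjusted p = 0.629).

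MT-ATP6, which forms the proton path of complex V, had 4444, 4607 and 3197 CPM with triptolide, against 3369.7, 3328 and 4252 CPM in untreated libraries. MT-ATP8, a small membrane subunit whose gene overlaps MT-ATP6 by 46 bases, had 165, 217 and 179 CPM, against 231, 173 and 156 CPM. Triptolide replicate 3 was the lowest library for MT-ATP6, untreated replicate 1 the highest for MT-ATP8, and the groups of both genes overlapped. The log2 fold changes were 0.16 ± 0.19 for MT-ATP6 (95% interval −0.26 to 0.58, adjusted p = 0.608) and 0.00 ± 0.19 for MT-ATP8 (−0.40 to 0.41, adjusted p = 0.993). Per kilobase, the mean levels were 11429 CPM per kb with triptolide and 9859.6 CPM per kb in untreated cells for MT-CO2, and 903 and 901 CPM per kb for MT-ATP8. By this measure MT-ATP8 had the lowest value of the mitochondrial members in both groups. Its gene is only 207 bases long beside paired 150 bp reads, and 22.2% of its bases are shared with MT-ATP6. The measured level of MT-ATP8 is therefore uncertain, and it does not show that its RNA was scarcer. Whether gene length or overlap had a part in the low value was not tested.

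Taken relative to the untreated mean, the median log2 level of the nuclear members varied between libraries with an SD of 0.18 in the triptolide group and 0.31 in the untreated group, beside the median difference of −0.18 between the groups. The summed level of the 38 nuclear members was 6779, 6996 and 5896 CPM with triptolide and 6250, 6857 and 8774 CPM in untreated libraries. The 6 mitochondrial members summed to 32985, 42474 and 28442 CPM with triptolide and 27732, 29759 and 34517 CPM in untreated libraries. Untreated replicate 3 was the highest of its group for 37 of the 38 nuclear members and untreated replicate 1 the lowest for 36. The log2 level in untreated replicate 3 exceeded the mean of the other two untreated libraries by a median of 0.52 over these genes. The ratio of the mitochondrial to the nuclear sum was 4.87, 6.07 and 4.82 in triptolide libraries and 4.44, 4.34 and 3.93 in untreated libraries, so on this ratio the groups did not overlap. The ratio was looked at after the members' values were known, and it was not tested.

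**Figure D3:**
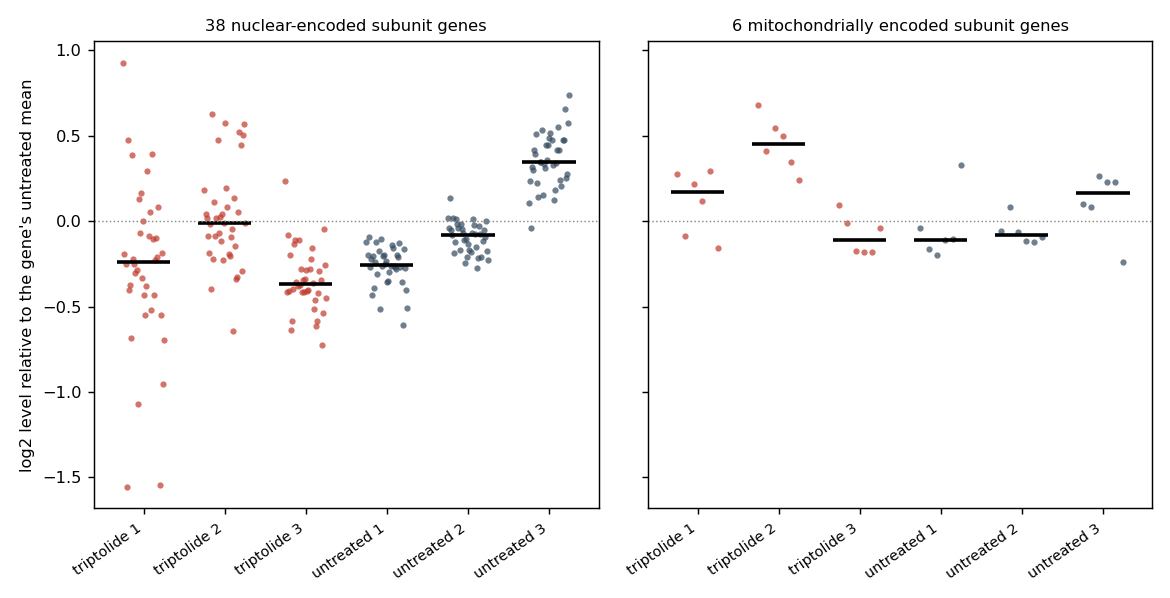
Log2 level of each gene in each library relative to the mean of the untreated libraries (y axis), for the 38 nuclear (left) and 6 mitochondrial (right) subunit genes; points are genes and bars are medians. The nuclear medians are −0.24, −0.01 and −0.37 in triptolide replicates 1 to 3 and −0.26, −0.08 and 0.35 in untreated replicates 1 to 3.

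Within the triptolide group, the difference between replicates 1 and 2 went with base composition. Triptolide replicate 1 was above replicate 2 in 8 of the 12 nuclear members with a GC content of at least 50%, by a median of 0.07 on the log2 scale, and in 1 of the 15 members under 45%, with a median of −0.69. Across the 38 nuclear members the correlation of that difference with GC content was r = 0.60 (Spearman 0.54), and across 15077 tested genes it was 0.67 (Spearman 0.70). Genes are not independent replicates, and all points share the same pair of libraries. ATP5F1D, the delta subunit of the central stalk with 63.9% GC, had 125, 60.7 and 66.4 CPM with triptolide, against 78.8, 85.5 and 127 CPM in untreated libraries. UQCRB, with 38.3% GC, had 48.2, 119.8 and 58.9 CPM, against 59.2, 71.4 and 111 CPM. The spread between triptolide libraries ran in opposite directions in these genes, with replicate 1 highest for ATP5F1D and lowest for UQCRB. The fitted log2 fold changes of the nuclear members also went with GC content (r = 0.39, Spearman 0.44), and the part of base composition in them was not tested beyond the GC offset, with which the nuclear median was −0.26 and the median of all tested genes −0.08. The excess of untreated replicate 3 went with shorter exon length, with r = −0.41 (Spearman −0.40) over the 38 members and −0.38 (Spearman −0.44) over 15077 tested genes. Its correlation with GC content was −0.05 (Spearman −0.10) over the members and 0.27 (Spearman 0.29) over the tested genes.

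**Figure D4:**
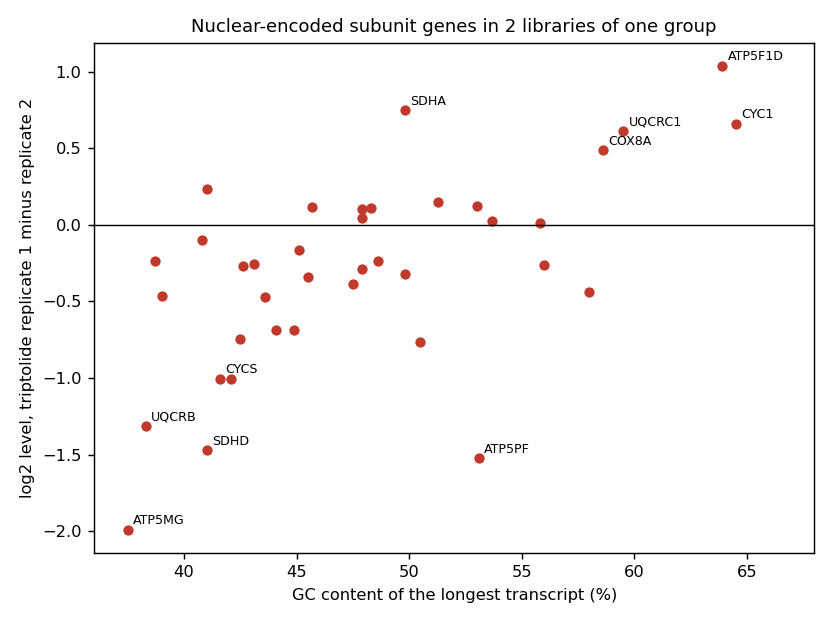
Log2 difference between triptolide replicates 1 and 2 (y axis) against the GC content of the longest transcript (x axis, percent) for the 38 nuclear subunit genes; each point is a gene. ATP5MG and UQCRB lie at the low-GC, negative end and ATP5F1D and CYC1 at the high-GC, positive end, with r = 0.60.

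Promoters of nuclear respiratory genes are known for sites of NRF1, of YY1 and of ETS factors such as GABP. RefSeq promoters (GRCh38.p14, 250 bases before to 50 after the start) were found for 30 of the 38 nuclear members and searched on both strands. A match found at the same bases on both strands is given once, and the printed matches do not otherwise overlap. The NRF1 motif was in 9 of 30 (30.0%), against 6.28% of all 27305 promoters and 9.4% of the 13813 of protein-coding genes. The YY1 motif was in 4 (13.3%, against 2.27% and 3.71%) and the ETS motif CCGGAAGT in 7 (23.3%, against 4.44% and 6.91%). The median log2 fold change was −0.32 in the 9 members with the NRF1 motif and −0.19 in the 21 without it, and for the ETS motif it was −0.07 in 7 with it and −0.25 in 23 without it. The ranges overlapped, at −0.57 to 0.49 with the NRF1 motif and −0.46 to 0.11 without it. For the ETS motif they were −0.57 to 0.11 with it and −0.46 to 0.49 without it. The YY1 groups had a median of −0.22 each. These are letter matches and medians given as a description, with no test. The promoters of the 2 nuclear members with the lowest log2 fold changes among those matched, SDHD (chr11:112086623-112086922, plus strand) and UQCR11 (chr19:1605413-1605712, minus strand), are printed in transcript direction. Capitals mark the NRF1 and ETS matches.
SDHD: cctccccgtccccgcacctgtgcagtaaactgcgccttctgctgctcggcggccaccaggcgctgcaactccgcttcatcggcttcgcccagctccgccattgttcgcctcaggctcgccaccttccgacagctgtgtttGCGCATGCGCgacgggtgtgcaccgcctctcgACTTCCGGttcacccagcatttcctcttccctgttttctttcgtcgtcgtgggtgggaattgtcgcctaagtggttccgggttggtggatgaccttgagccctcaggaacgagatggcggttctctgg
UQCR11: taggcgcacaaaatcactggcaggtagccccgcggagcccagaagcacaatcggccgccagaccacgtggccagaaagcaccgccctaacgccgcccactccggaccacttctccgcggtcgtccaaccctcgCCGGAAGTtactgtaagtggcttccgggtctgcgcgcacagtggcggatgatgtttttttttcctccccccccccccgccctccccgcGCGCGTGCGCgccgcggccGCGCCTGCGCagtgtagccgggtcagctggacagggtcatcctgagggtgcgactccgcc
SDHD carries an NRF1 match at bases 141 to 150, found on both strands, and a reverse-strand ETS match at 173 to 180 of the window. UQCR11 carries an ETS match at 134 to 141 and NRF1 matches at 222 to 231 and 241 to 250. Both genes thus hold both kinds of match, and neither was called, as given above.

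Other genes of the pathway were read in the same fit. Of 43 tested assembly factors, 0 were called higher and 1 lower (2.33%), beside 10.0% and 5.82% of all tested genes, with a median log2 fold change of −0.14. That gene was COA7, an assembly factor of complex IV, which fell to 24.8, 27.0 and 29.8 CPM with triptolide, against 51.4, 48.1 and 44.6 CPM in untreated libraries. The groups were far apart, and the log2 fold change was −0.82 ± 0.16 (adjusted p = 0.00572), but with ribosomal protein scaling the adjusted p was 0.215. Of 10 tested further subunits and isoforms, DMAC2L, the coupling factor B of ATP synthase, fell to 4.40, 3.49 and 4.26 CPM with triptolide, against 6.72, 6.36 and 6.77 CPM in untreated libraries (log2 fold change −0.71 ± 0.20, adjusted p = 0.0324). Its call was lost in 10 of the alternatives, with an adjusted p of 0.0635 under a GC offset, 0.345 with ribosomal protein scaling and 0.0593 to 0.0934 when triptolide replicate 2 or 3 or any of the untreated libraries was left out. ATP5IF1, the inhibitor of ATP hydrolysis by complex V, had 165, 149 and 121 CPM with triptolide, against 116, 119 and 160.4 CPM in untreated libraries, and its groups overlapped (log2 fold change 0.14, adjusted p = 0.656).

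The machinery that regulates nuclear respiratory genes and expresses mitochondrial DNA had 8 of 43 tested genes called lower (18.6%) and 0 higher, beside 5.82% and 10.0% of all tested genes. Its median log2 fold change was −0.29, and with ribosomal protein scaling 0 of its genes were called. Calls numbered 2 without triptolide replicate 3, and 3 each without untreated replicate 1 or 2. MTIF2, the initiation factor of mitochondrial translation, fell to 17.0, 33.01 and 28.1 CPM with triptolide, against 54.5, 55.7 and 56.7 CPM in untreated libraries (log2 fold change −1.09 ± 0.22, adjusted p = 0.00639). TOP1MT, the mitochondrial type I topoisomerase, fell to 31.5, 29.8 and 24.2 CPM, against 49.0, 46.4 and 57.7 CPM (−0.84 ± 0.17, adjusted p = 0.0074). TFB1M, which methylates the small mitochondrial ribosomal RNA, fell to 9.30, 9.08 and 8.85 CPM, against 15.2, 13.5 and 19.5 CPM (−0.82 ± 0.19, adjusted p = 0.0125). In each of the 3 genes all triptolide libraries were below all untreated ones, and with ribosomal protein scaling the adjusted p was 0.0976, 0.119 and 0.181. TFB1M had an adjusted p of 0.0517 without triptolide replicate 3. The other 5 called lower were FASTKD2, GFM1, GRSF1, MTPAP and POLG2 (edgeR adjusted p = 0.0359, 0.0383, 0.0457, 0.0277 and 0.04995), nearer to the threshold of 0.05. Some well-known members of this list were looked up after their values were seen. TFAM, which packages mitochondrial DNA, had a log2 fold change of 0.14 (adjusted p = 0.598) and POLRMT, the mitochondrial RNA polymerase, −0.31 (adjusted p = 0.354). TFB2M, its initiation factor, had −0.54 (adjusted p = 0.0737), and NRF1, the regulator of nuclear respiratory genes, −0.06 (adjusted p = 0.863).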

How the data were processed

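Gene-level read counts from poly(A) RNA of 3 triptolide and 3 untreated libraries were used. The authors deposited whole-number counts per gene. The submitters' processing notes name HISAT2 and featureCounts, without versions. Paired 150 bp reads from oligo(dT)-selected RNA were sequenced on NovaSeq or MGISEQ instruments, per the labels' protocols. Not given in the sources used here: genome build, annotation, strand setting and the treatment of multi-mapping reads. The series text calls the triptolide cells a control, and groups were taken from the sample labels.

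Counts were filtered with filterByExpr, TMM-scaled, and compared by the quasi-likelihood test of edgeR 4.0.16 (R 4.3.3), with a group term alone and Benjamini-Hochberg adjustment over 15202 genes. Standard errors come from the log2 fold change and its F statistic. Identifiers were matched to names for 35639 of 35716 genes. Lengths, GC content and exon overlaps came from GENCODE 29, and promoters from RefSeq GRCh38.p14. Levels per kilobase use the median length of the basic protein-coding transcripts, and with union exon length the pair of leading nuclear genes is not the same in complexes II, IV and V. The fit was tested on simulated data, with 7 false calls among 14855 genes tested. It recovered 0% of 1.25-fold, 20% of 1.5-fold, 72% of 2-fold and 100% of 4-fold changes. The lack of a call therefore says little about changes of 1.5-fold or less. Alternatives were other scalings, filters and tests (DESeq2 1.42.0, limma 3.58.1), a replicate block, GC and length offsets and each library left out. The members, gene lists and marker lists were chosen with earlier results of these data known. Values in every library are given for the genes called in a list (where over 6 are called, the 3 with the smallest p), the 2 nuclear members per complex with the smallest p, counting cytochrome c with complex III, and the 2 with the highest level per kilobase, all mitochondrial members and the subunit c genes. Members outside that rule whose library values are printed (ATP5MG, ATP5F1D and UQCRB) were chosen after their values were seen.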

Additional observations from a re-analysis of the deposited data

How the results depend on the processing

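Of 742 member values under alternatives, 651 kept their sign and stayed uncalled, 84 changed sign without a call and 7 became calls, and 0 members were called higher under any alternative run. Members called lower numbered 0, and 2 with a GC offset (ATP5MC2 and UQCR11, beside 17.3% of all tested genes) and 3 with a length offset (UQCR11, COX6A1 and ATP5PB, beside 10.4%), and 0 to 1 with libraries left out. The nuclear median was −0.33 to 0.01 and the mitochondrial median 0.00 to 0.31 with libraries left out, a choice on which the sign of the nuclear one depends. With a length offset the mitochondrial median was −0.064 and the median of all tested genes −0.07.
Genes called higher, 1527, became 584 when genes under 5 CPM were left out and 953 to 1580 with libraries left out (953 without untreated replicate 2). Genes called lower, 884, became 128 with ribosomal protein scaling, 336 with at least 5 CPM, 2631 with a GC offset, 1581 with a length offset (chosen after seeing the data), and 407 to 1034 with libraries left out (457 without triptolide replicate 3, 529 and 407 without untreated replicates 1 and 2). Further subunits called, 1, became 0 with library totals, ribosomal protein scaling, at least 5 CPM or the block, 2 with no filter or a length offset, and 0 to 2 with libraries left out. Assembly factors called, 1, became 0 with ribosomal protein scaling, 3 with no filter, DESeq2 or the block, 9 with a GC offset, 5 with a length offset and 1 to 3 with libraries left out. Machinery genes called, 8, became 3 with library totals or at least 5 CPM, 0 with ribosomal protein scaling, 20 with a GC offset and 2 to 10 with libraries left out. These lists were counted in either direction, out of 10, 43 and 43 genes tested in the main fit. Beside them, 1751 higher and 2631 lower of all 15202 tested genes were called with a GC offset, and 1473 and 1581 with a length offset. With no filter it was 2115 and 1185 of 35716, with DESeq2 1505 and 1123 of 15202, and with the block 1523 and 856. The cause of these shifts in the number of calls was not tested.
Deviations from the group means correlated at 0.00, −0.04 and −0.56 between same-numbered libraries and at −0.32 to 0.45 between differently numbered ones. With 3 libraries per group, these correlations cannot decide whether the replicate numbers pair the samples. With the replicate number as a block, 1 member was called lower (beside 5.63% of all tested genes), SDHD at −0.67 (adjusted p = 0.0474). Among the members, ATP5MG, at 3.71 to 17.1 CPM, had the widest interval.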
